A study of Mus musculus with 8 samples.

Results

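The genes described here encode the Toll-like receptors and their close partners: Tlr1, Tlr2, Tlr3, Tlr4, Tlr6, Tlr7, Tlr9, Cd180, Ly86 and Myd88. Every probe set of the array whose only gene symbol is one of these 10 was taken, which gave 16 of the 45056 probe sets in the table and 10 of the 18193 genes with a probe set of their own. The RNA came from germinal centre (GC) B cells of the spleen, sorted from mice aged 8 weeks on the GFPMYC/C57BL6 background, 12 days after immunization with sheep red blood cells. All mice carried the GFPMYC knock-in, a fusion of GFP to MYC, so both groups share that allele. B cells were enriched with magnetic beads, and cells with high PNA binding and high CD95 were taken as GC B cells. GFP signal then separated them into GFP-positive cells (MYC-positive) and GFP-negative cells (MYC-negative). There were 4 arrays of each fraction, and the sample descriptions name the partner of each array, which makes 4 pairs. The treatment protocol speaks of a sort from each mouse and the design text of pools, so whether a pair is 1 animal is not settled. The comparison addresses how GC B cells with GFP signal from the MYC fusion differ from those without that signal.

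Toll-like receptors are membrane proteins that bind conserved microbial molecules. Tlr1, Tlr2 and Tlr6 act at the cell surface on lipoproteins, Tlr4 on lipopolysaccharide, and Tlr3, Tlr7 and Tlr9 in endosomes on double-stranded RNA, single-stranded RNA and unmethylated CpG DNA. Most of them signal through the adaptor Myd88 to NF-kB, and B cells can be driven into division and antibody secretion through them. Cd180 is a receptor relative of Tlr4 that has no signalling domain of the Toll type, sits on B cells, and is held at the surface by Ly86, its small secreted partner.

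Upstream sequence is shown for Tlr1, Tlr6 and Cd180, which were among the genes that fell, and for Myd88, the shared adaptor. Windows of 250 bases before a gene start were read from RefSeq (GRCm38.p6), which held 11 windows for 8 of the 10 genes. Tlr1 and Tlr6 lie on the same stretch of chromosome 5, both on the minus strand. The motifs searched on both strands were the E-box CACGTG, which MYC can bind, the ETS core GAGGAA, and GAAA followed after any 2 bases by another GAAA, as in interferon response elements. Capitals mark matches.
Tlr1, chr5:64932700-64932949, minus strand: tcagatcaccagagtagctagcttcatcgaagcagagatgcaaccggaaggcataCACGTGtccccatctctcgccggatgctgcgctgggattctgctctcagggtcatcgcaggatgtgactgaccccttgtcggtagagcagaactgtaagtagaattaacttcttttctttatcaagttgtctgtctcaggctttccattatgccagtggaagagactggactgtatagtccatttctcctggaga
Tlr6, chr5:64959167-64959416, minus strand: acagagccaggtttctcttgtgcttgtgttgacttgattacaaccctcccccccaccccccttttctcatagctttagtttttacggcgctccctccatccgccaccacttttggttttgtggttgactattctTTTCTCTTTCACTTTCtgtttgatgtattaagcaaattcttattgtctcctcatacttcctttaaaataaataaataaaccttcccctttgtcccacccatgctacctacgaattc
Cd180, chr13:102693297-102693546, plus strand: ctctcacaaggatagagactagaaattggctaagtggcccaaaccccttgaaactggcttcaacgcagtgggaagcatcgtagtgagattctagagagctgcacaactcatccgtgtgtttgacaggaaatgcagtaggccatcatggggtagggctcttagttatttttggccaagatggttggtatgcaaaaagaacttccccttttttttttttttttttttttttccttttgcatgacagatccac
Myd88, chr9:119340019-119340268, minus strand: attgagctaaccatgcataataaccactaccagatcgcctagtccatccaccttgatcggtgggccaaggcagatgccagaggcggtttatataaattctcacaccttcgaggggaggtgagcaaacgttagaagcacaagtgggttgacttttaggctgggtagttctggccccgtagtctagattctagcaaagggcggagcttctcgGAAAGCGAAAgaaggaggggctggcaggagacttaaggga
An E-box was found in 1 of the 11 windows, this one of Tlr1, where 6.02% of 32851 windows in the table held it. The GAAA pair was found in 2 windows, the one of Tlr6 shown, with 2 overlapping matches, and that of Myd88, against 2.98% of all windows. The ETS core was found in 2 others, a second window of Tlr1 and that of Tlr9, against 23.3%. The Cd180 window shown held no match, nor did another window of Tlr6 or the window of Tlr3, which also fell. A match describes letters and is not a measured binding site.

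The values are array signals on a linear scale that had been scaled array by array, with trimmed means from 495 to 497. The median signal ran from 41.4 to 55.8 on MYC-negative and from 28.2 to 39.7 on MYC-positive arrays, so these ranges did not overlap. Myc, on which the cells were sorted, had a log2 difference of 2.83 between MYC-positive and MYC-negative arrays (SE 0.28, limma adjusted p = 0.00069) and had the same sign in 4 of 4 pairs, which checks the labels. Because RNA of a whole fraction was measured, fewer cells that carry a transcript and less of it per cell cannot be told apart.

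Of the 10 genes, 5 were lower and 1 was higher in MYC-positive than in MYC-negative GC B cells at an adjusted p under 0.05. Over all 11754 genes tested 11.5% were called lower and 11.2% higher, 22.7% in all. The median log2 difference of the 10 genes was -0.68, and that of all genes was -0.06. All 10 had a probe set above the filter on dim signals. The brightest probe set of a gene stood for it, and a gene was called bright where that probe set had a geometric mean signal of at least 100 over all 8 arrays. There were 7 bright genes, of which Tlr1, Tlr3, Tlr4, Tlr6 and Cd180 were lower and 0 were higher, while Ly86 and Myd88 did not pass. The 3 dim genes were Tlr2, Tlr7 and Tlr9, of which Tlr7 was higher. Tlr6 lay just inside the limit at 103 and Tlr7 just outside it at 82.2. In 4 of the 10 genes all MYC-positive arrays lay below all MYC-negative ones, and in 1 all lay above, where over all genes this held for 10.9% and 11.1%.

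**Figure D1:**
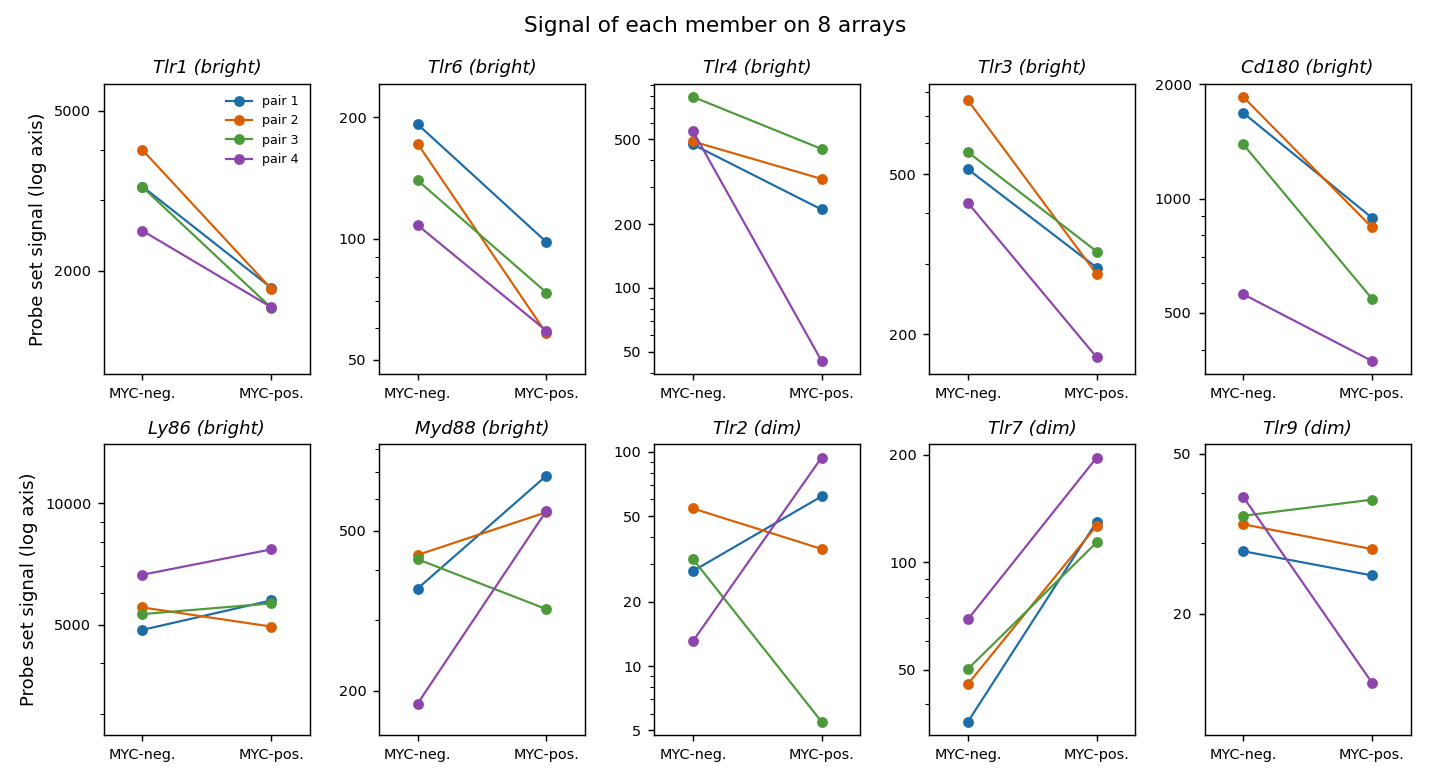
Probe set signal of each of the 10 genes (log axis) on the MYC-negative and MYC-positive arrays, with a line for each of 4 pairs. Tlr1, Tlr6, Tlr4 and Tlr3 have all MYC-positive arrays below all MYC-negative ones, Tlr7 has them all above, and Ly86 stays between 4849 and 7689.

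**Figure D2:**
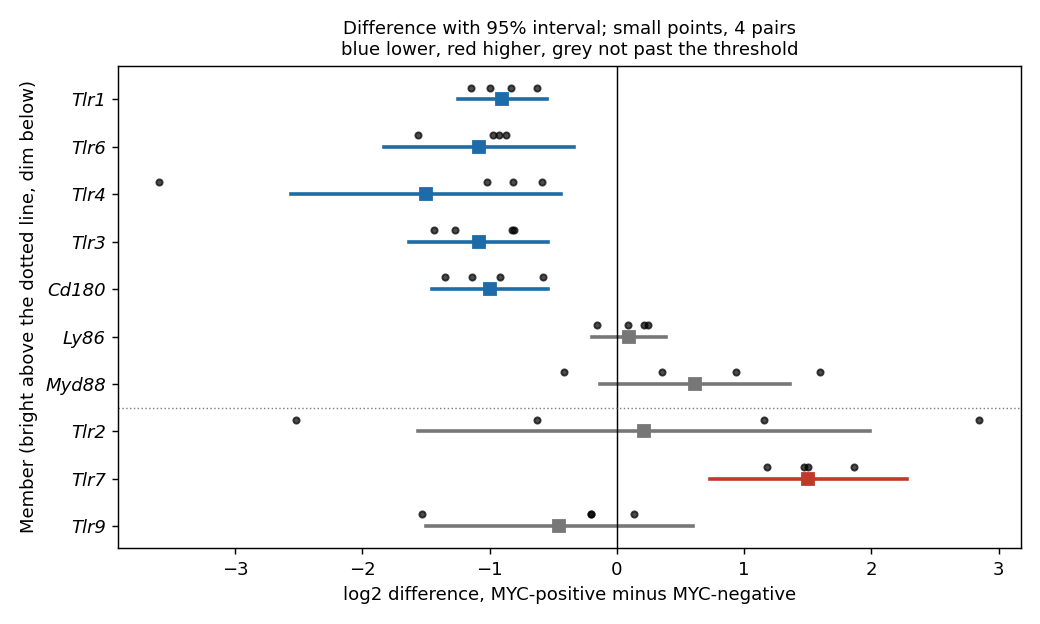
The log2 difference of each gene (squares) with its 95% interval from limma (bars) and the 4 pairs (small points), with bright genes above the dotted line. The 5 lower genes lie between -1.50 and -0.90 and Tlr7 at 1.50.

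Among the surface receptors for lipoproteins, Tlr1 and Tlr6, each of which pairs with Tlr2, both fell. Tlr1 had signals of 3237, 3990, 3227 and 2512 on the MYC-negative arrays of pairs 1 to 4 and of 1813, 1802, 1617 and 1622 on the MYC-positive ones. The groups did not overlap, and the MYC-positive arrays lay close to each other. Tlr1 fell by 0.90 on the log2 scale (SE 0.15, 95% interval -1.25 to -0.55, limma adjusted p = 0.0049, lower in 4 of 4 pairs). Tlr6, the partner for diacylated lipoproteins, had 192, 172, 139 and 108 in MYC-negative cells and 98.0, 58.1, 73.4 and 59.0 in MYC-positive cells. These groups did not overlap either, although the MYC-positive array of pair 1 came near the MYC-negative array of pair 4. Tlr6 fell by 1.08 (SE 0.33, limma adjusted p = 0.044, 4 of 4 pairs).

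Tlr2, the receptor that both need, was dim and had no common direction. Its signals were 27.8, 54.5, 31.6 and 13.0 in MYC-negative cells and 62.0, 35.2, 5.50 and 94.1 in MYC-positive cells. It was higher in pairs 1 and 4 and lower in pairs 2 and 3, and the MYC-positive array of pair 3 lay under the filter level of 18.7, as did the MYC-negative array of pair 4. The difference was 0.21 (SE 0.79, 95% interval -1.56 to 1.99, limma adjusted p = 0.88), so neither a 2-fold fall nor a 2-fold rise lies outside the interval.

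Tlr4, the lipopolysaccharide receptor, had 474, 489, 794 and 548 in MYC-negative cells and 234, 326, 451 and 45.4 in MYC-positive cells. The groups were apart, and the MYC-positive array of pair 4 was far below the other 3. Tlr4 fell by 1.50 (SE 0.47, 95% interval -2.56 to -0.44, limma adjusted p = 0.048, 4 of 4 pairs). Without pair 4 the difference was -0.81 (adjusted p = 0.014), and the call ended without pair 1, 2 or 3 (0.14, 0.082 and 0.052). A second kept probe set of Tlr4 was at -2.19, lower in 4 of 4 pairs, with adjusted p = 0.055 when each probe set was a row of its own, where 12% of 22024 probe sets were called lower. In that fit the main probe set of Tlr4 had adjusted p = 0.053. Ly96, the partner that Tlr4 needs to bind lipopolysaccharide, was at 0.34 (SE 0.17, limma adjusted p = 0.19). Its geometric mean was 1546 in MYC-negative cells and 1951 in MYC-positive cells.

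Of the receptor Cd180 and its partner Ly86, Cd180 fell and Ly86 did not pass the test. Cd180 had 1681, 1853, 1390 and 560 in MYC-negative cells and 890, 840, 545 and 374 in MYC-positive cells. It was lower in the MYC-positive sample of every pair, but the groups overlapped, since the MYC-negative array of pair 4 was below 2 MYC-positive arrays of other pairs. Cd180 fell by 1.00 (SE 0.20, 95% interval -1.45 to -0.54, limma adjusted p = 0.0096). Ly86 had 4849, 5513, 5308 and 6650 in MYC-negative cells and 5740, 4941, 5642 and 7689 in MYC-positive cells. These groups overlapped widely, and pair 4 was the highest in both. Ly86 was at 0.10 (SE 0.13, 95% interval -0.20 to 0.39, limma adjusted p = 0.64), so with the deposited scaling the interval does not reach the size of the fall of Cd180.

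A difference taken between genes of the same array does not depend on a factor applied to the whole array, as in median centring. The change of Cd180 minus that of Ly86 was -1.16, -0.98, -1.44 and -0.79 in pairs 1 to 4, with a mean of -1.09 ± 0.27 (SD, n = 4 pairs). That of Tlr4 minus Ly96 had a mean of -1.84 ± 1.19, and that of Tlr7 minus Tlr9 a mean of 1.96 ± 0.83 (SD, n = 4 pairs for each), with the same sign in 4 of 4 pairs in all 3. The 2-sided exact sign-flip test gave p = 0.125 for each, also after Benjamini-Hochberg adjustment over the 3, which is the smallest p that 4 pairs allow. The test could therefore not pass, and these 3 were chosen after the values were seen, so the values are a description. Quantile normalization, which is not such a factor, moved the mean to -0.87 for Cd180 minus Ly86 and to -1.59 for Tlr4 minus Ly96. For Tlr7 minus Tlr9 the mean was then 1.92.

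Of the 3 endosomal receptors, Tlr3 fell, Tlr7 rose and Tlr9 did not pass the test. Tlr3, which binds double-stranded RNA and signals without Myd88, had 515, 764, 568 and 425 in MYC-negative cells and 293, 282, 321 and 175 in MYC-positive cells. The groups did not overlap. Tlr3 fell by 1.09 (SE 0.24, 95% interval -1.63 to -0.54, limma adjusted p = 0.014, 4 of 4 pairs).

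Tlr7, the receptor for single-stranded RNA, had 35.8, 45.6, 50.3 and 69.3 in MYC-negative cells and 130, 127, 114 and 196 in MYC-positive cells. Every MYC-positive array lay above every MYC-negative one, and pair 4 was the highest in both. Tlr7 was 1.50 higher (SE 0.34, 95% interval 0.73 to 2.28, limma adjusted p = 0.015, 4 of 4 pairs), which is a 2.84-fold difference. Its other 2 probe sets were higher in 4 of 4 pairs too, at 1.63 and 0.78. On both of them the groups overlapped, with MYC-negative arrays up to 62.1 and 82.5 and MYC-positive arrays down to 30.8 and 40.5. They did not pass when each probe set was a row of its own (limma adjusted p = 0.063 and 0.19). In that fit 9.03% of all probe sets were called higher and 21.1% in either direction. The call of Tlr7 ended without pair 1 (1.38, adjusted p = 0.087) and without pair 2 (1.51, adjusted p = 0.080).

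Tlr9, the receptor for CpG DNA, was dim, with 28.7, 33.4, 35.1 and 39.1 in MYC-negative cells and 24.9, 29.0, 38.5 and 13.5 in MYC-positive cells. The groups overlapped, and the lowest value was again the MYC-positive array of pair 4. Tlr9 was at -0.45 (SE 0.46, 95% interval -1.50 to 0.60, limma adjusted p = 0.53). Tlr9 is known to act in mouse B cells, and at a signal this near the filter level of 18.7 its difference is poorly determined.

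Myd88, the adaptor, had 359, 436, 425 and 186 in MYC-negative cells and 686, 556, 319 and 561 in MYC-positive cells. It was higher in 3 of 4 pairs and lower in pair 3, and the groups overlapped. Myd88 was at 0.62 (SE 0.33, 95% interval -0.13 to 1.36, limma adjusted p = 0.22). The self-test on simulated arrays called 18% of the genes given a log2 rise of 1 and 14% of the genes given a fall of 1. Only 200 of 11754 genes were changed there, while 22.7% of genes were called in these data. The adjusted threshold was therefore stricter in the self-test, and its shares may be too low for these data. A gene that misses the threshold may still differ.

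The calls of the 5 lower genes depended on how arrays were scaled. Centring each array on its median shifted the median over all genes up by 0.44, and quantile normalization shifted it by 0.15. After median centring 0 of the 5 kept their call, with Tlr1 at -0.46 (adjusted p = 0.091), Tlr6 at -0.64 (0.19), Tlr4 at -1.06 (0.076), Tlr3 at -0.65 (0.084) and Cd180 at -0.56 (0.077). Tlr7, Myd88 and Ly86 were then called higher, at 1.94, 1.06 and 0.54 (adjusted p = 0.0021, 0.027 and 0.043). After quantile normalization Tlr1, Tlr3 and Cd180 were called lower and Tlr7 higher, while Tlr6 (-0.63) and Tlr4 (-1.20) were not called, and Ly86 was at -0.04. The sign of Tlr1, Tlr3, Tlr4, Tlr6, Cd180 and Tlr7 was the same under each scaling. Without pair 2, 0 of the 6 calls held, and without pair 1 only that of Tlr1 did. Without the pair as a block, Tlr6, Tlr4 and Cd180 had adjusted p = 0.056, 0.10 and 0.11.

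**Figure D3:**
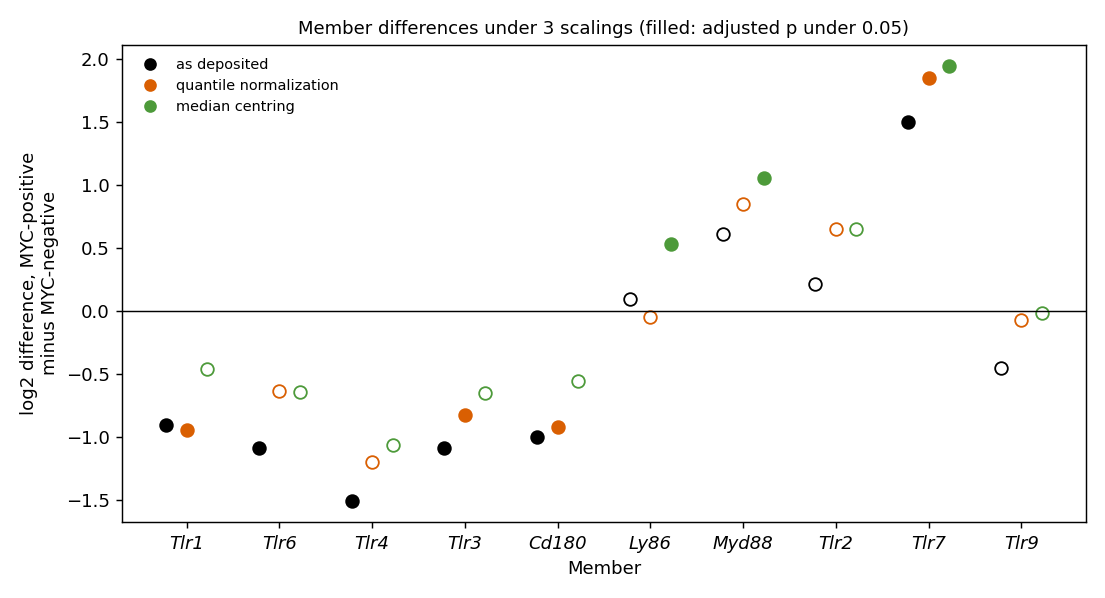
The log2 difference of each gene with the deposited scaling, after quantile normalization and after median centring, with filled points where adjusted p was under 0.05. Tlr7 is filled under all 3 scalings, and the 5 lower genes stay below 0 but are open after median centring.

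Calls among the other genes of the pathway were about as frequent as over all genes. Of 102 genes in 6 lists, 92 were on the array with a probe set of their own and 84 were tested, of which 9 (10.7%) were higher and 12 (14.3%) lower, with a median of -0.11. Over all genes 11.2% were higher and 11.5% lower, with a median of -0.06. No gene of the other Toll-like receptors passed, with 2 of 5 tested: Tlr12 was at 0.11 and Tlr13 at 0.57 (adjusted p = 0.91 and 0.47). Tlr5 and Tlr8 lay under the filter in both groups, with geometric mean signals from 1.78 to 3.09. Among the co-receptors 0 of 3 tested passed, and Cd36 was at -0.27 (adjusted p = 0.56). Cd14, also on that list, lay under the filter and was not tested, with a log2 difference of 2.59. At an unadjusted p under 0.05, too, 0 of the tested genes of these 2 lists passed.

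Of 19 genes of receptor transport and cleavage, 3 were higher and 2 lower, with a median of 0.01. The higher ones were Hsp90b1, the chaperone that folds Toll-like receptors (0.77, adjusted p = 0.0062), Lrrc59 (0.94, 0.0041) and the protease gene Ctsb (0.72, 0.034). The lower ones were Slc15a4, an endolysosomal transporter gene needed for Tlr7 and Tlr9 signalling (-0.86, adjusted p = 0.013), and Pld4, which encodes a nuclease of the endolysosome (-1.05, 0.017). Of 25 adaptor, kinase and ubiquitin ligase genes, 1 was higher and 6 were lower, with a median of -0.31. The largest differences among those called were in Irak2, a kinase gene of the Myd88 complex (-1.54, adjusted p = 0.027), Ecsit (1.19, 0.0099) and Peli1, which encodes a ubiquitin ligase (-1.02, 0.0041). Irak2 was dim, its geometric mean being 84.7 in MYC-negative cells and 29.1 in MYC-positive cells.

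Of 21 negative regulators tested, 3 were higher and 3 lower, with a median of -0.17. Atf3, also on this list, lay under the filter and was not tested. Its geometric mean was 41.7 in MYC-negative and 3.59 in MYC-positive cells (log2 difference -3.54), and it was lower in every pair. The NF-kB inhibitor gene Nfkbie (0.94, adjusted p = 0.0075) and Tnfaip3, which encodes the deubiquitinating enzyme A20 (0.93, 0.012), were higher, and Trafd1 was lower (-0.61, 0.047). Of 14 transcription factor genes, Nfkb2 (1.04, adjusted p = 0.024) and Jun (1.11, 0.028) were higher and Fos was lower (-1.82, 0.020), with a median of -0.05. Without pair 1 the 6 lists held 3 higher and 1 lower gene, and without pair 2 they held 2 and 1. After median centring they held 18 and 2.

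**Figure D4:**
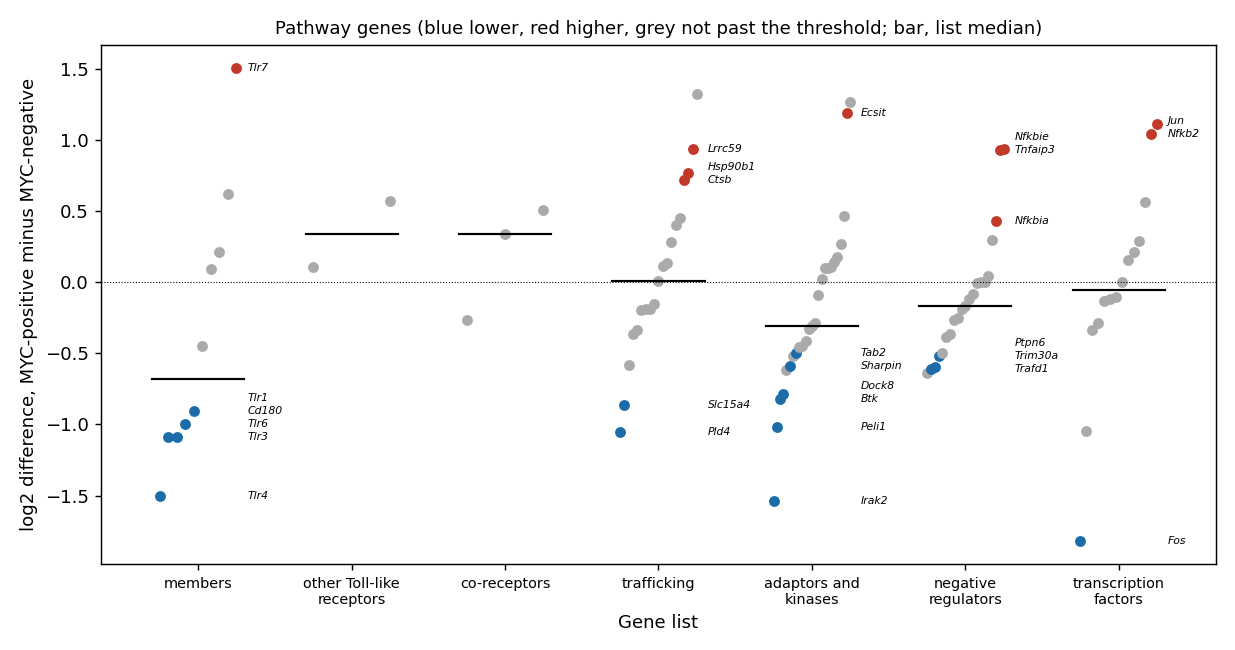
The log2 difference of each tested gene of the 10 genes described and of the 6 pathway lists, with names for those that passed the test and a bar at each median. The medians run from -0.68 for the 10 genes to 0.34 for the other Toll-like receptors and the co-receptors.

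Macrophages carry Toll-like receptors as well, and markers of that lineage moved with the groups. Of 18 macrophage and monocyte markers tested, out of 24 on the array, 13 were higher and 1 was lower in MYC-positive cells, with a median of 3.35. Over all genes 11.2% were called higher and 11.5% lower. The filter took the mean of all 8 arrays, so some of these markers passed it only through their MYC-positive signals. Such were C1qa, C1qc, Csf1r, Vcam1, Axl, Slc40a1 and Cd163, with MYC-negative geometric means of 3.33 to 10.9. The count and the median therefore lean to the higher side. The summed signal of all 24 ran from 821 to 1837 in MYC-negative cells and from 2552 to 14356 in MYC-positive arrays. The largest differences among those called were in Csf1r (6.40), Vcam1 (5.98) and Slc40a1 (5.83), each from a geometric mean signal of 5.42 to 10.9 in MYC-negative samples, so these folds are poorly determined. The groups overlapped on Csf1r, with 76.0 on the MYC-negative array of pair 1 and 74.9 on the MYC-positive array of pair 3. Apoe was the 1 that was lower (-1.87, adjusted p = 0.0088). Itgam was at 1.69 to 2.21 in both groups, and Cd14, a co-receptor of Tlr4 and itself such a marker, had 5.65 in MYC-negative cells and 34.0 in MYC-positive cells. Both lay under the filter and were not tested. In pair 3 Cd14 did not rise, with 19.7 in MYC-negative and 18.8 in MYC-positive cells. Among MYC-positive arrays the summed macrophage signal was highest in pair 1 and lowest in pair 3, while Tlr7 was highest in pair 4 and also lowest in pair 3. The part of such cells in the difference of Tlr7, Myd88 or any other gene described was not tested.

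Of the 11 B cell markers tested, all but Pax5 (148 in MYC-negative cells and 44.2 in MYC-positive cells) had geometric mean signals of at least 100 in both fractions. Of these 11, 0 were higher and 5 lower, with a median of -0.53: Cr2 (-1.30), Fcrla (-1.04), Blk (-0.64), Cd22 (-0.63) and Pax5 (-1.75). Over all genes 11.5% were called lower and 11.2% higher at the adjusted threshold. At an unadjusted p under 0.05, 0 of the 11 were higher and 8 lower. The share of all genes at that unadjusted p was not computed. The summed signal of the B cell markers ran from 57427 to 65672 in MYC-negative cells and from 40196 to 53604 in MYC-positive arrays. Of 9 GC B cell markers tested, 0 were higher (also at an unadjusted p under 0.05) and 3 lower, with a median of -0.33: Mybl1 (-2.12), Neil1 (-1.03) and Fas (-0.61). Of 9 markers of naive, memory and marginal zone B cells, 0 were higher (also at an unadjusted p under 0.05) and 4 lower, with a median of -0.35: Cd55 (-1.95), Klf2 (-1.59), Ccr6 (-1.40) and Bank1 (-1.31). Their summed signal ran from 5556 to 8051 in MYC-negative cells and from 2676 to 4695 in MYC-positive arrays. The part of such cells in the falls of Tlr1, Tlr3, Tlr4, Tlr6 and Cd180 was not tested.

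Of 7 plasma cell markers 4 were higher and 0 lower (also at an unadjusted p under 0.05): Sdc1 (2.02), Slpi (1.83), Irf4 (1.57) and Derl3 (1.16). Over all genes 11.2% were called higher at the adjusted threshold. Dendritic cell markers had 0 called of 4 tested, granulocyte markers 0 of 1, and erythroid and platelet markers 0 of 2. This also held at an unadjusted p under 0.05. Other genes of these lists lay under the filter and were not tested. Among them the dendritic markers Ccl22 and Batf3 had log2 differences of 5.15 and 2.09, and the platelet marker Pf4 of 3.20. Each was higher in every pair. Their MYC-negative geometric means were 1.82, 4.08 and 5.47, so these sizes are poorly determined. Others were lower, such as Xcr1 (-1.41). Of 3 T and NK cell markers tested, Thy1 was higher (2.34) and Lat lower (-2.12). Thy1 had a MYC-negative geometric mean of 14.5, under the filter level of 18.7, so it passed the filter only through its MYC-positive signals. Its groups overlapped, with MYC-negative arrays up to 44.0 and MYC-positive arrays down to 33.3. The MYC-negative array of pair 4 had 1.67, so the size for Thy1 is poorly determined. Lat was near the filter level in MYC-positive cells, at 18.9. The T and NK cell list was under the filter in both groups for 7 of the 11 genes on the array.

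**Figure D5:**
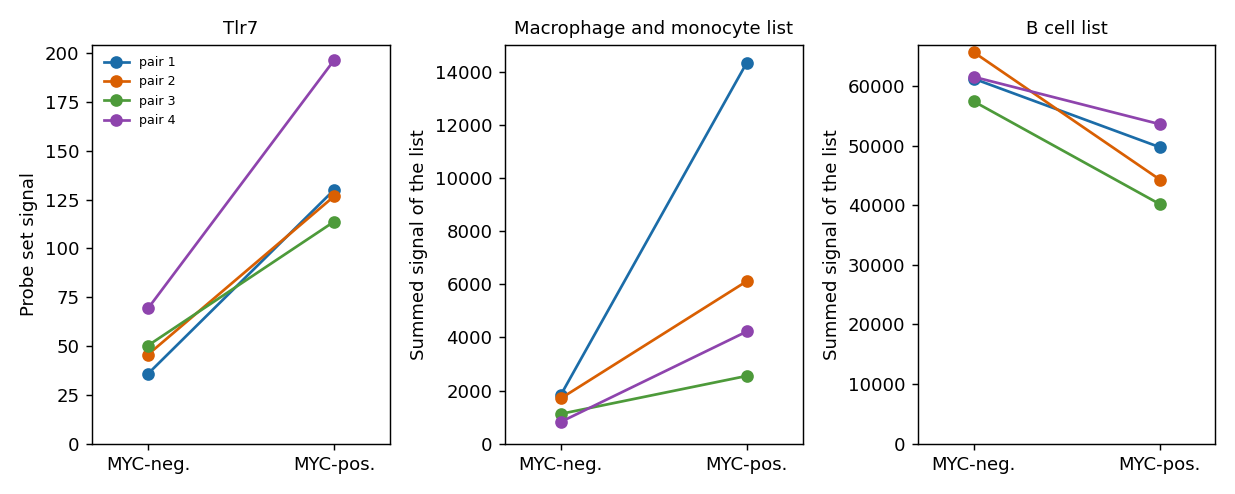
Signal of Tlr7 and summed signals of the macrophage and monocyte list and of the B cell list, on linear axes from 0, with a line for each of 4 pairs. Tlr7 is highest in pair 4 and the macrophage sum in pair 1, at 14356, while every MYC-positive B cell sum is below every MYC-negative one.

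The genes whose log2 signal followed a bright member most closely over the 8 arrays were found among all genes tested. Tlr1 was followed by Crlf3, Sdccag8 and Pecam1 (Pearson r of 0.99, 0.98 and 0.98), and Cd180 by Msh3, Iqcb1 and Sh2b3 (0.99 for each). Tlr6 was followed by Fgd3, 1700019D03Rik and Antxr2, Tlr4 by Ankrd9, Ccdc39 and Sp4, and Tlr3 by Zfp90, Cblb and Stradb, with r from 0.98 to 0.99. Ly86 was followed by 1110059G10Rik, Fth1 and Smim7, and Myd88 by Psme3ip1, Rabl6 and Adap1, with r from 0.97 to 0.99. All of the 8 arrays share the group difference and the scaling, so these values describe likeness and are not tests.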

How the data were processed

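The authors deposited 1 table with a linear intensity for each probe set on 8 Affymetrix arrays, hybridised with cDNA amplified from 5 to 20 ng of total RNA per the labels' protocols. The submitters' processing notes name MAS5 alone; version, scaling target and build: not given in the sources used here. With 4 arrays per group, precision is limited by their number.

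Genes came from the platform annotation, checked by gene identifier against RefSeq (GRCm38.p6), which changed 0 symbols. The table held 19 controls, 34945 probe sets with 1 gene, 932 with several and 9160 unnamed here. A floor of 1 was set before taking log2. The filter kept probe sets whose mean exceeded the 40th percentile over non-control probe sets (a signal of 18.7), and the one with the highest mean stood for each of 11754 genes. The group effect was fitted in limma 3.58.1 (R 4.3.3), with pairs as blocks and eBayes with trend, on 3 residual degrees of freedom, with Benjamini-Hochberg adjustment over all genes and calls at 0.05. Each difference is the log2 value in MYC-positive less that in MYC-negative samples, and tests were 2-sided. Where a pair is not a separate animal, p-values cover only the spread of these samples.

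Pairs were taken from the sample descriptions, and the replicate numbers in the titles were not used. Paired arrays' deviations from their group means correlated at 0.26, 0.17, 0.088 and 0.12 for pairs 1 to 4, and the negative of pair 4 with the positive of pair 3 at 0.30. No 2 arrays were identical. The fit was tested on simulated data with 200 changed genes of 11754, a smaller share than the 22.7% called in these data. It called 68% of genes given a log2 rise of 2 and 50% of genes given a fall of 2, and 3 of 11554 unchanged genes. The 10 genes and all lists were chosen with earlier results of these data known. Of each list, all called genes were named where there were 5 or fewer, otherwise the 3 largest with 1 sign in all pairs. Ly96, Cd36, Cd14, Itgam, Atf3, Ccl22, Batf3, Pf4, Xcr1 and the other Toll-like receptors were named outside that rule, after their values were seen. So were C1qa, C1qc, Axl and Cd163. Alternatives were 2 other scalings, filter, floor, block, probe set rule, trend and leaving out each pair.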

Additional observations from a re-analysis of the deposited data

How the results depend on the processing

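With the deposited scaling 1 member was called higher and 5 lower, 9 and 12 pathway genes, and 1319 and 1352 of all genes. After median centring the counts were 3 and 0, 18 and 2, and 3204 and 546. After quantile normalization 3 members were lower. With no filter 3 were lower, and with the filter at the 60th percentile, which leaves Tlr7 out, 0 were higher. Without the pair as a replicate block 2 members, 6 pathway genes and 901 genes were lower, and the call of Tlr7 did not change. Without the eBayes trend 4 pathway genes were lower, and of all genes 736 were higher and 771 lower. Leaving out each pair in turn gave 0 to 1 member higher and 0 to 5 lower, 2 to 11 and 1 to 16 pathway genes, and 403 to 1742 and 352 to 2036 genes, with the fewest without pairs 1 and 2. Tlr2 changed sign without pair 1 (-0.10) and without pair 4 (-0.66), and ranged up to 1.13 without pair 3, and Ly86 after quantile normalization (-0.045). The other members kept their sign under every alternative run. Of 13 alternatives each, the call held in 11 for Tlr1, 10 for Tlr3, 9 for Cd180 and 6 for Tlr6, and of 14 each in 10 for Tlr7 and 4 for Tlr4. For Tlr1, Tlr3, Tlr6 and Cd180 the filter, floor, block, probe set and trend alternatives left the difference itself unchanged. Only the other scalings and the fits without a pair moved it, so these counts are not counts of independent checks. The cause of these changes was not tested, and every fit without a pair also had fewer arrays. Signals near the filter level of 18.7 limit what can be said of Tlr2 and Tlr9.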

Other observations

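Of the 16 probe sets, 3 lay under the filter on dim signals and entered no test. The dimmer probe set of Tlr3 had 39.4, 41.6, 77.5 and 19.2 in MYC-negative cells and 3.39, 15.3, 12.9 and 5.35 in MYC-positive cells, so all MYC-negative arrays lay above the filter level of 18.7 and 0 MYC-positive arrays did. A further probe set of Tlr4 was above that level on 3 MYC-negative and 0 MYC-positive arrays, and another on 1 array of each group. The direction of the first 2 was that of the brighter probe set of their gene. The last one went the other way, at 0.41, and was higher in 3 of 4 pairs.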
